A study of Mus musculus with 8 samples.

Results

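The regions described here are 125 genomic windows of 1000 bp in mouse kidney DNA whose methylation was higher in every untreated injured library than in either sham library, in 2 surgical injury models. They were taken from 65728 eligible windows on chromosomes 1 to 19, each with at least 3 CpG positions of 10 or more reads in all 8 libraries and at least 100 summed reads per library. A window's level is its methylated reads divided by all its reads, in percent. Its gap is the level of the lowest untreated injured library minus that of the highest sham, and windows with a gap of 5 percentage points or more were kept. The windows were thus chosen by the measured difference between untreated injured and sham libraries, which is described below without a test. The libraries from mice given 5AZA had no part in the choice beyond the read minimum.

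Methylation of the cytosine in a CpG dinucleotide is a covalent mark that is copied to the new DNA strand after replication. In mammalian tissues, CpG-dense promoters are mostly unmethylated and most other CpGs are methylated. Intermediate levels arise where cells, alleles or neighbouring CpGs differ. In bulk kidney, a change of the mark within cells and a change in the mix of cells cannot be told apart.

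The DNA came from kidney cortex and outer medulla of male wild type C57BL/6J mice and was assayed by reduced representation bisulfite sequencing (RRBS). In RRBS the enzyme MspI cuts at CCGG and short fragments are sequenced after bisulfite has turned unmethylated cytosine into uracil. Unilateral ureteral obstruction (UUO), in which the left ureter is tied and cut and the kidney becomes fibrotic, was sampled at 7 days in 2 libraries. The submitters' names for these 2 hold the word saline, the vehicle of 5AZA, although their labels record no injection, so untreated means here only not given 5AZA. Another 2 libraries came from obstructed mice injected into the peritoneum with 5AZA in saline at 1 mg per kg per day. The labels do not spell the name out, which is used for azacytosine nucleosides, inhibitors of the enzymes that methylate DNA. In the ischemia model the vessels of both kidneys were clamped for 25 minutes and released, with 1 library after 1 week of reperfusion and 1 after 1 month. Each model had its own sham-operated control with 1 library, so the 4 single-library groups had no replicate check. The labels used here give no age, and do not say whether the UUO pair or the 5AZA pair came from different mice, so an SD or p measures only the spread between libraries, which may be technical. Summed over CpG positions, a library had 57853745 to 86411736 reads.

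The kept windows were 0.190% of the eligible ones. The mirrored rule, with every untreated injured library at least 5 points below both shams, kept 116 windows, or 0.176%. Without any minimum gap, all 4 untreated injured libraries lay above both shams in 3674 windows, 5.59% of the eligible ones, and below both in 3870, 5.89%. These numbers were close, but their ratio rested on single libraries. Without the UUO sham the rule kept 1353 higher and 438 lower windows, without 1 week of ischemia 736 and 180, without the ischemia sham 568 and 1022, and without UUO 2 143 and 244. Just inside the threshold, chr14:118185001-118186000 had a gap of 5.01 and chr18:47593001-47594000 one of 5.02 points. Just outside it, chr15:82038001-82039000 and chr5:58112001-58113000 both had a gap of 4.97 points. All coordinates are in build mm9, and no gene is named because the annotation at hand is of another build.

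The kept windows started from intermediate methylation. Their median level was 58.2% in the UUO sham and 57.8% in the ischemia sham, against 73.4% and 71.5% over all eligible windows. By the mean of both shams, 64 of the 125 lay at 50 to 70%, 28 at 30 to 50% and 22 at 70 to 90%. A further 10 lay at 10 to 30% and 1 below 10%, while none lay at 90% or more. That last class holds 30.2% of all eligible windows. Levels end at full methylation, so the rule leaves its windows little or no room to be kept. The class at 50 to 70% holds 9.4% of all eligible windows and 51.2% of the kept ones. The 116 windows of the mirrored rule started higher, with a median level of 81.4% over both shams. The mirrored rule in turn leaves little or no room for windows with the lowest sham levels. Both rules thus limit the possible starting levels, and their part in these medians was not tested.

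Levels in the injured libraries were a median of 72.3% in UUO 1 and 72.4% in UUO 2, 66.0% after 1 week of ischemia and 69.2% after 1 month. The rule puts every window's injured libraries above its shams, so these medians restate the choice in sizes. Over all eligible windows the medians were 76.1% in both UUO libraries, 70.9% after 1 week and 72.3% after 1 month. Across the kept windows single levels ran from 15.7% to 96.3% in the injured libraries and from 8.56% to 85.7% in the shams.

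**Figure D1:**
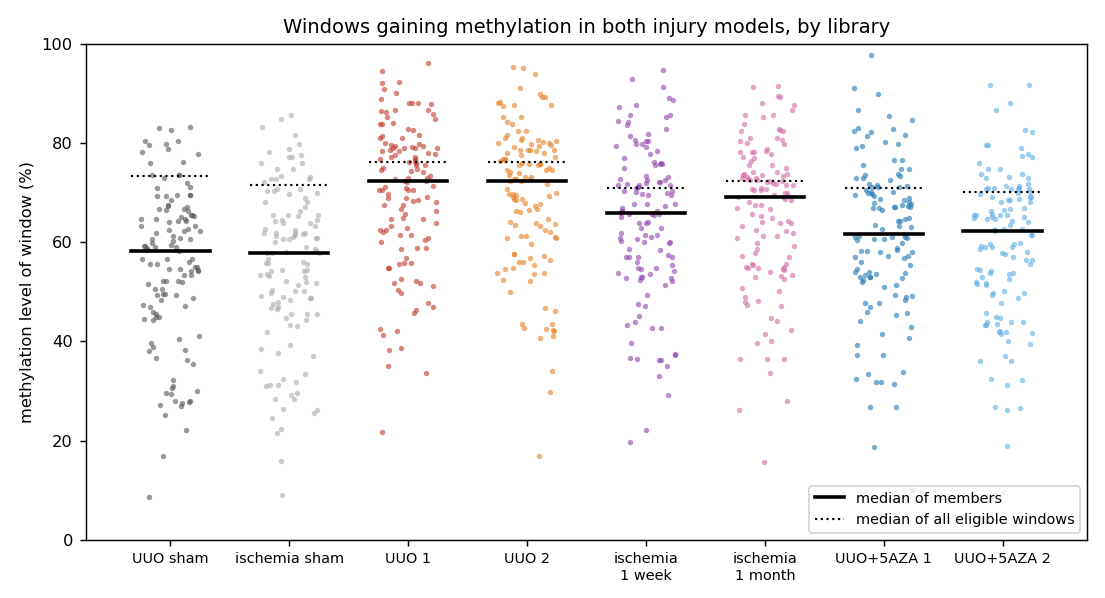
Methylation level in percent (vertical axis) of each of the 125 kept windows (points) in each of the 8 libraries (horizontal axis), with the median of the kept windows (solid bar) and of all 65728 eligible windows (dotted bar). The kept windows lie lowest in both shams, at medians of 58.2% and 57.8%, highest in UUO, and at 61.7% and 62.2% in the 5AZA libraries.

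The largest gap, 16.5 points, was at chr4:115645001-115646000, a window with 8 measured CpG positions within 59 bp. Its level was 29.3% in the UUO sham (95% exact binomial interval 21.2 to 38.5) and 22.3% in the ischemia sham (15.5 to 30.4). It was 45.8% in UUO 1 and 56.1% in UUO 2, 54.7% after 1 week of ischemia and 49.0% after 1 month, and 45.2% and 41.7% in the 5AZA libraries. Both shams stood apart from all 6 obstructed or ischemic libraries, the 5AZA pair included. With 116 to 384 reads per library, summed over its CpGs, this was also one of the shallower windows. A read is counted at each CpG it covers, so the intervals are too narrow.

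Position by position, the libraries were fully separated only between the outermost CpGs of this window. At each of 5 neighbouring CpGs from 115645273 to 115645318, every untreated injured library lay above both shams. These runs are picked out by that outcome, here and below, and rest on few reads per CpG, from 11 to 24 in the shams of this window. The run's pooled level was 15.3% and 9.6% in the UUO and ischemia shams, 35.6% and 50.8% in the UUO pair, 49.2% after 1 week and 40.4% after 1 month. The remaining 3 CpGs, 2 at one end and 1 at the other, had pooled levels of 67.7% and 55.5% in the shams and 68.7% to 72.6% in the untreated injured libraries.

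At chr6:84090001-84091000, ranked second with a gap of 16.3 points, all 5 CpGs were higher in each injured library than in both shams. The level was 29.9% in the UUO sham and 31.1% in the ischemia sham, 62.5% and 54.7% in the UUO pair, 53.9% after 1 week and 47.4% after 1 month. The 5AZA pair was split, with library 1 at 48.9%, inside the injured range, and library 2 at 32.5%, close to the shams. UUO exceeded its sham by 28.6 points here, the largest difference after UUO among the 125 windows.

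The third window, chr7:25919001-25920000, with 13 CpGs in 97 bp, had the largest difference after 1 month of ischemia, 31.1 points. It stood at 38.0% in the UUO sham and 24.5% in the ischemia sham, 55.7% and 63.7% in the UUO pair, 52.8% after 1 week, 55.7% after 1 month, and 46.9% and 47.7% with 5AZA. The 2 shams differed by 13.5 points here, the widest difference between shams in the set, so the ischemia difference of 28.3 to 31.1 points holds a low sham value. A run of 7 CpGs from 25919866 to 25919911 was at 19.2% and 6.2% in the UUO and ischemia shams and at 47.8% to 59.6% in the untreated injured libraries.

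The windows of rank 4 to 6 started from different sham levels. At chr1:187139001-187140000 the shams were at 55.0% (UUO) and 61.8% (ischemia), the UUO pair at 81.6% and 80.6%, ischemia at 75.9% after 1 week and 77.8% after 1 month, and 5AZA at 67.1% and 63.4%. At chr9:114326001-114327000 the same libraries stood at 45.0% and 46.9%, 69.7% and 71.8%, 60.3% and 68.8%, and 68.2% and 59.6%. At chr5:151239001-151240000 they stood at 29.5% and 31.3%, 52.6% and 56.0%, 43.8% and 54.8%, and 37.3% and 45.8%. In all 3, UUO lay 24.8 to 26.1 points above its sham and both 5AZA libraries lay between the higher sham and the higher UUO library.

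The other windows among the 12 largest gaps had 3 to 6 CpGs and gaps of 9.09 to 11.3 points. Among them, chr11:50436001-50437000 kept a gap of only 3.73 points with at least 20 reads per position, and chr5:67884001-67885000 one of 6.57 points with levels averaged over positions. The gap of chr11:69265001-69266000 was 4.49 points with edge positions, defined below, left out, against 10.1 points. They are chr5:67884001-67885000, chr11:69265001-69266000, chr6:108231001-108232000, chr11:50436001-50437000, chr4:132754001-132755000 and chr8:97652001-97653000. At chr6:108231001-108232000, with 3 CpGs, the 5AZA libraries were at 59.9% and 59.0%, level with the shams at 60.2% and 59.0% and below the injured libraries at 69.9% to 77.2%. At chr11:69265001-69266000 they were at 33.5% and 37.0%, between the shams at 25.1% and 26.2% and the UUO pair at 41.3% and 42.4%. Only 8 of the 125 windows had a gap of 10 points or more, and 10 windows did under the mirrored rule.

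**Figure D2:**
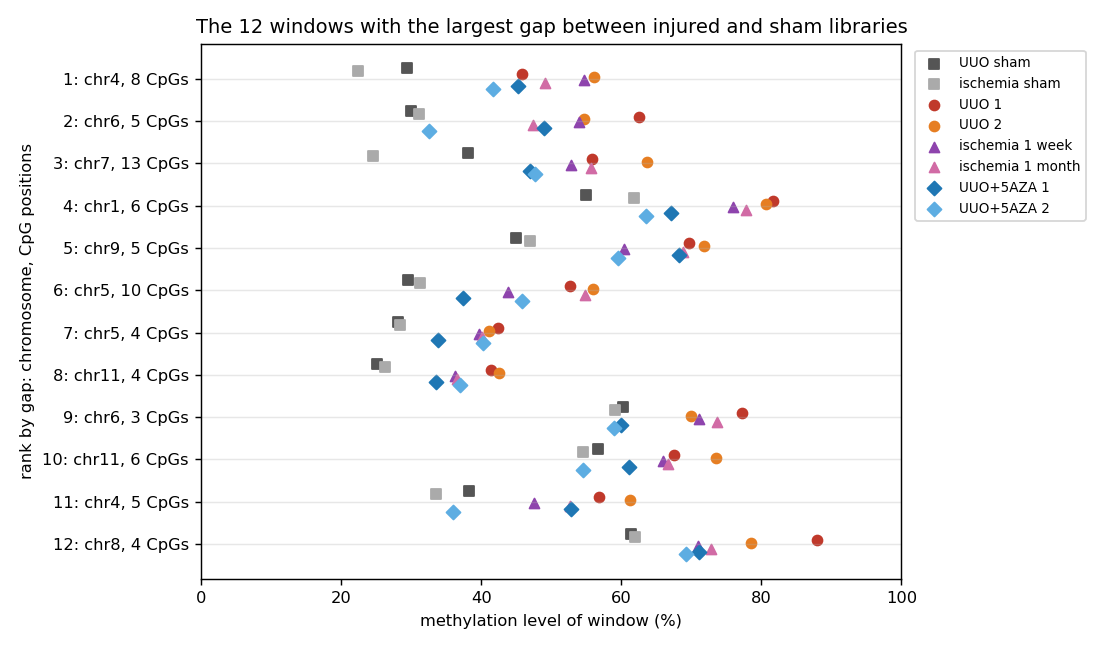
Methylation level in percent (horizontal axis) in each of the 8 libraries (coloured symbols) for the 12 windows with the largest gap, ordered by rank (vertical axis, with chromosome and number of CpG positions). Both shams (squares) lie left of every untreated injured library in each row, by 16.5 points in the first and 9.09 points in the twelfth, while the 5AZA libraries (diamonds) lie between the shams and the highest injured library or level with the shams.

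Most kept windows held few CpGs. The median was 5 measured CpG positions, against 6 over all eligible windows, and 64 of the 125 had 4 or 5. Only 3 had 20 or more, 2.4% against 17.2% of all eligible windows. The measured CpGs of a kept window spanned a median of 124 bp, and in 106 of the 125 (84.8%, against 56.2% of all eligible windows) they lay within 220 bp, the upper size of the inserts that were selected. A kept window is thus mostly the reading of 1 or a few MspI fragments rather than of 1000 bp. The 2 kept windows nearest to each other on a chromosome were 59 windows apart, so none adjoined another. All 19 autosomes held at least 2, from 2 of 2856 eligible windows on chromosome 3 (0.07%) to 7 of 2108 on chromosome 19 (0.332%).

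Kept windows were also shallower than the rest. The fewest reads in any library had a median of 169, against 235 over all eligible windows. Of the windows with 500 or more reads in their shallowest library, 27.3% of all eligible ones, 6 were kept, a rate of 0.033% against 0.190% overall. The 116 windows of the mirrored rule had a median of 154.5 such reads. The part of depth in the choice of windows was not tested.

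The difference was spread over the CpGs of most kept windows. Of their 805 measured CpG positions, 753 (93.5%) had a higher mean over the untreated injured libraries than over the shams, against 54.1% of positions in all eligible windows. In 83 of the 125 windows this held at each position. All 4 untreated injured libraries lay above both shams at 446 positions, 55.4%, against 4.8% of positions in all eligible windows. With any single position left out, the gap stayed above 0 in 116 windows and at 5 points or more in 28. These positions belong to the chosen windows and share reads with one another, so the counts describe how even the difference was.

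CpGs at fragment edges and CpGs inside fragments differed in level. A position was classed as an edge where read depth changed by more than 10% to a neighbouring CpG within 250 bp, or where one side had no such neighbour. The 490 edge positions had a median level of 72.6% in the shams and 79.9% in the injured libraries, with a median difference of 8.32 points. The 315 inside positions had medians of 33.6% and 52.0% and a median difference of 14.9 points, and 310 of them were higher in the injured mean. In the flanks of all eligible windows, described below, the median level in the UUO sham was 47.0%, and 3.03% with edge positions left out. The injured mean was above the sham mean in 49.8% and 62.0% of these flanks. Lower levels at inside positions were thus not particular to the kept windows. The ends were filled with methylated dCTP during library preparation, and the part this plays in the edge levels was not tested. Inside positions alone left all untreated injured libraries above both shams in 95 of the 96 kept windows that have any, and by 5 points or more in 72. These positions also took part in choosing the windows, so the counts are a description.

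With edge positions left out of the whole table, 25416 windows remained eligible, and the same rule then kept 93 windows that were higher and 36 that were lower. Of the 125 windows, 29 were still eligible, and 21 of these were among the 93. The 93 were 0.366% of the windows then eligible, against 0.190% with all positions. The near balance of higher and lower windows, 125 against 116, was not seen in this smaller set of windows. The part that the change of windows plays in this was not tested.

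The most CpG-rich of the kept windows was chr11:97361001-97362000, with 48 CpGs and a gap of 6.42 points, rank 52. Its level was 36.2% in the UUO sham (95% exact binomial interval 34.4 to 38.1), 34.0% in the ischemia sham (32.1 to 36.1), 55.8% and 54.9% in the UUO pair, 42.6% after 1 week and 44.7% after 1 month. Both 5AZA libraries, at 41.6% and 42.0%, lay between the shams and all untreated injured libraries. Between 2156 and 4196 reads, summed over the 48 CpGs, stood behind each level, more than in the windows with the largest gaps. A read is counted at each CpG it covers, so these sums and the intervals overstate the precision.

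Inside it, the shared difference was largest over a short stretch. In a run of 18 neighbouring CpGs from 97361755 to 97361836, all 4 untreated injured libraries lay above both shams at every CpG. The run was at 17.7% in the UUO sham and 22.7% in the ischemia sham, 48.8% and 47.5% in the UUO pair, 38.8% after 1 week and 37.8% after 1 month, and 25.1% and 32.1% with 5AZA. Over the remaining 30 CpGs the ischemia libraries were at 44.4% after 1 week and 48.8% after 1 month, the shams at 43.7% (UUO) and 38.4% (ischemia), and both UUO libraries at 58.4%. Over the whole window, 26 of the 48 CpGs had all untreated injured libraries above both shams, most of them in this run.

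**Figure D3:**
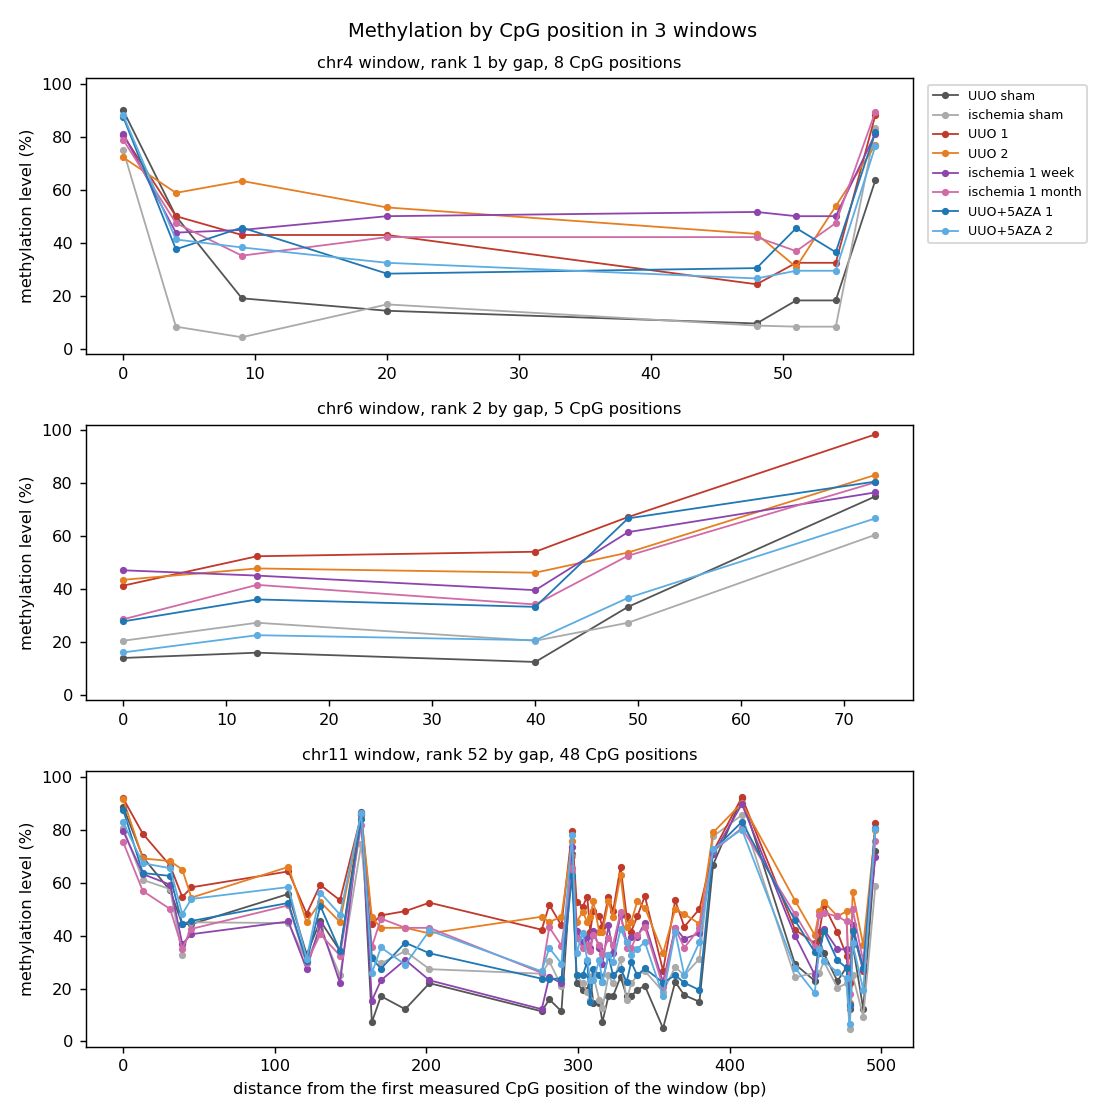
Methylation level in percent (vertical axes) at each measured CpG against its distance in bp from the first one (horizontal axes) in the windows of rank 1 and 2 by gap and in the most CpG-rich window, with 1 line per library. In the first window 5 neighbouring CpGs separate shams from injured libraries and the outermost CpG on each side is at 63.6% or more in all libraries. In the third, 18 neighbouring CpGs within it do so.

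The next most CpG-rich windows behaved differently from each other. At chr17:32533001-32534000, with 43 CpGs, the 26 inside positions were at 4.9% and 5.6% in the UUO and ischemia shams, 25.0% and 20.1% in the UUO pair, 9.6% after 1 week, 16.3% after 1 month, and 6.3% and 6.9% with 5AZA. The 5AZA pair there was close to the shams and below all untreated injured libraries. Over the whole window the shams were at 16.9% and 15.9%, the UUO pair at 35.1% and 29.9%, and the 5AZA pair at 18.7% and 18.8%. Ischemia was at 22.1% after 1 week and 26.2% after 1 month. The gap of this window was 5.13 points, but 4.0 points for inside positions and 4.78 points with at least 20 reads per position. At chr13:113442001-113443000, with 29 CpGs, the shams were at 68.6% and 69.0%, the UUO pair at 77.9% and 75.6%, ischemia at 77.8% and 78.2%, and the 5AZA pair at 76.5% and 79.7%. Here 5AZA stood with the injured libraries, and with at least 20 reads per position the window's gap was 0.81 points.

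The sizes after UUO and after ischemia are set side by side here as a description, since both chose the windows. UUO exceeded its sham by a median of 12.8 points over the kept windows (range 5.75 to 28.6), against 0.48 points over all eligible windows. Ischemia exceeded its sham by a median of 8.14 points after 1 week (5.10 to 32.3) and 9.30 points after 1 month (5.03 to 31.1), against -0.47 and -0.17 points over all eligible windows. The UUO difference was larger than both ischemia differences in 92 of the 125 windows, 73.6% against 50.3% of all eligible windows, and smaller than both in 13, against 29.5% of all. A related test, given below, set UUO minus its sham against the mean of both ischemia times minus their sham, and called no window. It works on log odds rather than points, and its single-library groups borrow their spread from the UUO and 5AZA pairs. The lowest of the untreated injured libraries was 1 week of ischemia in 74 windows, 1 month in 35, UUO 2 in 9 and UUO 1 in 7, so the ischemia libraries mostly set the gap. Over all eligible windows the same libraries were the lowest in 44.2%, 31.9%, 9.9% and 14.1%.

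UUO libraries ran higher than ischemia libraries in general. Both UUO libraries lay above both ischemia libraries in 75 of the kept windows, 60.0%, against 48.7% of all eligible ones. The UUO mean was above the ischemia mean by a median of 3.89 points in the kept windows and 1.66 points over all. Tested over all eligible windows in a moderated quasi-binomial model (limma, Benjamini-Hochberg adjustment), with calls set at an adjusted p under 0.05 and a difference of 10 points or more, UUO and ischemia differed in 58 windows, 0.0882%, of which UUO was higher in 50 (0.0761%) and lower in 8 (0.0122%). With edgeR 13 windows passed, 0.0198%, with UUO higher in 5 and lower in 8, so the lean to higher UUO depended on the model. In the quasi-binomial model 24 of the 125 had an unadjusted p below 0.05, 19.2% against 19.9% of all. All these libraries also chose the windows, so the members' counts are a description. Of the 125, 1 passed the adjusted test, chr11:97361001-97362000, which was 11.7 points higher after UUO (adjusted p = 0.00971). No window passed with limma on log2 ratios, and 16 of the 125 had an unadjusted p below 0.05, 12.8% against 12.3% of all. When each model was first set against its own sham, no eligible window (0.00%) and so none of the 125 passed, and 6 of the 125 had an unadjusted p below 0.05, 4.8% against 4.95% of all eligible windows.

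**Figure D4:**
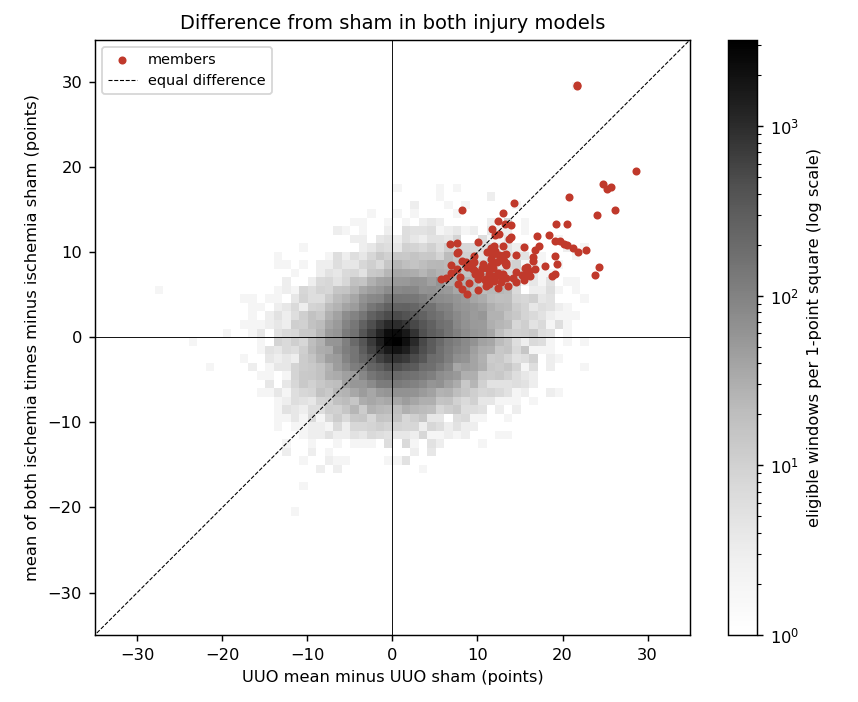
UUO mean minus UUO sham (horizontal axis) against the mean of both ischemia libraries minus the ischemia sham (vertical axis), in percentage points, for all 65728 eligible windows (grey squares, log colour scale) and the 125 kept windows (red points). The kept windows lie at the upper right edge of the cloud by the rule, and most lie below the line of equal difference.

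The 2 ischemia times, each 1 library that the rule used, are also compared as a description. The 1-month library was above the 1-week library in 83 of the 125 windows, 66.4%, against 56.3% of all eligible windows, with a median difference of 1.25 points against 0.31. The rule treats both times alike. In the same model none of the 65728 windows passed (0.00%), and 3 of the 125, 2.4%, had an unadjusted p below 0.05, against 4.40% of all. Neither edgeR nor limma fitted to log2 ratios called any. With edgeR 3 of the 125 had an unadjusted p below 0.05, 2.4% against 3.71% of all. With limma on log2 ratios it was 1, 0.8% against 4.38%. With 1 library per time, the spread was borrowed from the UUO and 5AZA pairs.

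The widest differences between the times went in both directions. At chr6:134199001-134200000 the level was 60.1% after 1 week and 72.6% after 1 month, with shams at 53.4% (UUO) and 48.9% (ischemia) and the UUO pair at 76.7% and 80.5%. At chr19:53628001-53629000 it was 61.0% after 1 week and 72.4% after 1 month, and at chr5:151239001-151240000 43.8% and 54.8%. The opposite order was found at chr8:13491001-13492000, with 75.7% after 1 week and 67.6% after 1 month, and at chr6:84090001-84091000 and chr12:84711001-84712000, by 6.49 and 6.33 points. None of these passed the adjusted test (adjusted p = 1 in each, quasi-binomial model with limma).

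The 5AZA libraries, which did not choose the windows, lay below the UUO pair in most of them. Median levels were 61.7% in library 1 and 62.2% in library 2. Both lay below both UUO libraries in 104 of the 125 windows, 83.2%, against 48.6% of all eligible windows. Both lay above both shams in 76 windows, 60.8%, against 13.3% of all, and below both shams in 3, against 33.3%. Against the UUO sham alone, both were higher in 82 windows (19.7% of all eligible windows) and lower in 7 (53.3%). In 77 windows, against 23.8% of all, both lay below each untreated injured library, ischemia included. In 59 windows, 47.2% against 2.88% of all, both lay above the shams and below the UUO pair. The windows were picked for high UUO and low sham levels, and the same libraries enter these counts, so nothing is read from the distance of the shares to the background. Within pairs, 5AZA 1 was above 5AZA 2 in 78 windows (51.8% of all eligible windows) and UUO 1 above UUO 2 in 63 (47.9%), and the UUO sham was above the ischemia sham in 64 (62.9%).

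In size, the 5AZA mean was below the UUO mean by a median of 8.78 points, against 2.29 points over all eligible windows, and above the UUO sham by a median of 4.51 points, against -1.54 points over all. The low sham levels were part of the choice. The 5AZA difference from the UUO sham was a median of 32.2% of the UUO difference. High UUO levels were part of the choice and make this share smaller, so it is not read as an effect of 5AZA. The 5AZA mean lay below the UUO sham in 22 windows, above the UUO mean in 1, chr13:113442001-113443000, and between them in the others. Under the mirrored rule, where UUO levels are low by choice, the 5AZA mean was 1.86 points above UUO in the median.

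In the quasi-binomial model with limma, 40 of the eligible windows, 0.0609%, were lower with 5AZA than in UUO by these same thresholds, and 3 of the 125 were among them. At an unadjusted p below 0.05 there were 81 of the 125, 64.8% against 25.2% of all. UUO libraries enter both this test and the choice, so the count is given as a description. These were chr11:97361001-97362000, from 55.3% ± 0.613 in UUO to 41.8% ± 0.306 with 5AZA (SD, n = 2 each; adjusted p = 0.00644 with limma), and chr17:32533001-32534000, from 32.5% ± 3.69 to 18.8% ± 0.095 (SD, n = 2 each; adjusted p = 0.0282 with limma). The third, chosen after its values were seen, was chr9:112090001-112091000, with 9 CpGs, from 62.8% ± 1.95 to 49.8% ± 0.49 (SD, n = 2 each; adjusted p = 0.0428 with limma). In that window the shams were at 49.4% (UUO) and 47.6% (ischemia), and ischemia at 55.5% after 1 week and 59.2% after 1 month, so 5AZA stood 0.34 points above the UUO sham. No eligible window was higher with 5AZA in this test. With limma on log2 ratios no window passed, and 73 of the 125 had an unadjusted p below 0.05, 58.4% against 24.4% of all.

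The widest differences between UUO and 5AZA did not pass the test. At chr6:134199001-134200000 the 5AZA libraries were at 58.4% and 57.9%, against 76.7% and 80.5% in UUO, a difference of -20.4 points (adjusted p = 0.0539, limma). At chr2:84581001-84582000 they were at 58.1% and 59.2%, below the shams at 60.7% and 61.5%, against 81.1% and 72.4% in UUO. At the other end, chr16:4040001-4041000 and chr2:35084001-35085000 had 5AZA means of 70.1% and 91.4% against UUO means of 70.6% and 92.0%. The UUO sham is a single library that also chose the windows, so its comparison with 5AZA is a description too. There, 1 eligible window passed, 0.00152%, and none of the 125 did, while 16 of them had an unadjusted p below 0.05, 12.8% against 12.3% of all. With edgeR none passed, and 14 of the 125 had an unadjusted p below 0.05, 11.2% against 12.9% of all.

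The flanks of the kept windows, which the rule did not use, differed by less than the windows themselves. Only the windows were chosen for a large difference, so a smaller one in the flanks can follow from the choice alone. CpGs 300 to 2000 bp outside a window are too far to share a fragment with it, and 43 of the 125 windows had at least 3 such CpGs of 10 or more reads. The injured mean was above the sham mean in 27 of these 43 flanks, 62.8%, against 49.8% of the flanks of all eligible windows. The median difference was 0.66 points (quartiles -0.46 and 2.17), against 11.1 points in the kept windows. All 4 untreated injured libraries lay above both shams in 3 of the 43 flanks, 7.0%, against 4.56% over all eligible windows, and none did so by 5 points. With edge positions left out, the injured mean was above in 68.2% of 22 flanks, against 62.0% over all eligible windows. With at least 20 reads per position it was above in 71.8% of 39 flanks, against 50.1%. These 3 flanks belong to chr4:132754001-132755000, chr7:29250001-29251000 and chr11:49074001-49075000, chosen after their values were seen, with flank differences of 9.35, 2.81 and 10.1 points. Few kept windows also held enough reads at positions under the read minimum, where the injured mean was higher in 7 of 9, against 54.4% of all windows with such reads. All 4 untreated injured libraries were above both shams in 1 of these 9, against 6.51%.

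**Figure D5:**
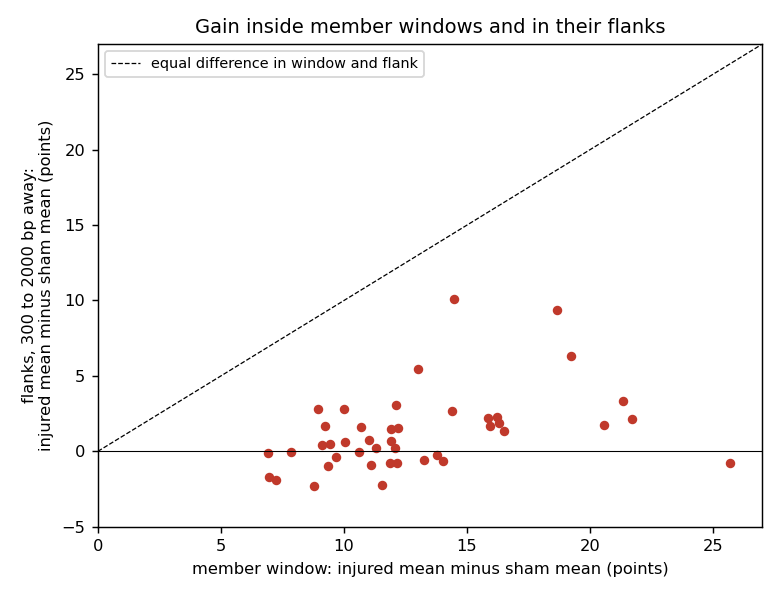
Mean of the untreated injured libraries minus mean of both shams, in percentage points, inside each kept window (horizontal axis) and in its flanks 300 to 2000 bp away (vertical axis), for the 43 kept windows with measured flanks. All 43 points lie below the line of equal difference, with a median of 0.66 points in the flanks. The windows, but not the flanks, were chosen for a large difference.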

How the data were processed

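The deposited tables hold, for each CpG position and library, a count of covering reads and a count of methylated reads, made by the authors and not normalized, and also a deposited fraction, the ratio of these counts to 3 decimals. Bowtie and build mm9 are named in the submitters' processing notes. No source used here states the methylation caller or its filters.

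Joining by coordinate (pandas 2.3.3 and numpy 2.4.6 under Python 3.11.15) gave 959366 autosomal positions with 10 or more reads in all 8 libraries. Reads were summed per window. PCR copies are not told apart, and 1 read covers several CpGs and is counted at each. The intervals treat these counts as independent, so they are too narrow even for counting error, and they cover no other error. Contrasts were fitted over all 8 libraries with a quasi-binomial model, 1 mean per group, the dispersion moderated with limma 3.58.1 in R 4.3.3 and not allowed below 1. It was run on simulated data with independent reads and an assumed spread between libraries. Those data share no reads between CpGs, so they cannot check this feature of the real counts. Residual degrees of freedom were 2. The prior had a dispersion of 1.38 on 6.95 degrees of freedom. edgeR 4.0.16 and limma on log2 ratios of the deposited counts (pseudocount 1) were alternatives.

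Members and lists were chosen with earlier results of these data known. Named windows are the 12 largest gaps, the 3 richest in CpGs, and the 3 extremes in each direction for 5AZA minus UUO and for 1 month minus 1 week.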

Additional observations from a re-analysis of the deposited data

How the results depend on the processing

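The number of kept windows was between 113 and 138 with 5 or 20 reads per position, windows shifted by 500 bp or of 300 bp, levels averaged over positions, or the deepest positions left out, against 125. It was 69 with at least 5 CpGs per window, 393 at a gap of 3 points and 8 at 10 points, as these settings are stricter or looser by construction. Leaving out 1 library gave 128 to 1353 windows: 1353 without the UUO sham, 568 without the ischemia sham, 736 without 1 week and 236 without 1 month of ischemia, since fewer libraries then have to meet the rule. Of the 125, 92 were kept with levels averaged over positions and 105 with 20 reads per position.

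The count of the 125 that were lower with 5AZA than in UUO, 3, was 5 of 29 with edge positions left out, 0 with limma on log2 ratios, and 2 to 16 with 1 library of either pair left out, the 16 being without 5AZA library 1. With the replicate number as a block it was 33, and 1952 over all windows. The numbers are not known to pair the libraries, and the deviations of both pairs correlated at 0.13 over all windows. For 5AZA against UUO, 0.0609% of all eligible windows were called lower. With edge positions left out it was 1.25% of the windows then eligible. The number called lower over all windows also rose without either 5AZA library and fell without either UUO library. The rises to 5 and 16 were thus not confined to the 125. For UUO against ischemia the count was 1, beside 0.0882% of all eligible windows. With edge positions left out it was 4 of 29, beside 1.66% of the windows then eligible. No window passed with limma on log2 ratios, or with each model set against its own sham, a contrast added after seeing the data. With 1 UUO or 5AZA library left out, the median difference over the 125 was 3.59 to 3.96 points, against 3.89 points with all libraries. The cause of these changes was not tested. No count for 5AZA against the UUO sham or for 1 month against 1 week changed from 0 among the 125. Every named window kept a gap above 0 at 20 reads, inside fragments and with averaged positions, where these could be computed.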
